A study of Mus musculus with 47 samples.

Results

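The proteasome genes of the mouse medial prefrontal cortex (PFC) were followed through withdrawal from chronic intermittent ethanol. They were taken by symbol, as every gene starting with Psma, Psmb, Psmc, Psmd, Psme, Psmf or Psmg that had a probeset naming it alone, without Psmb8 and Psmb9. This gave 47 of the 18193 genes read from such probesets. Each gene was read from its brightest probeset, and 53 other probesets of the same genes are described separately. Of the 47, 45 encode subunits, assembly chaperones, activators or an inhibitor of the proteasome. Psmc3ip and Psme3ip1 are named after a subunit with which their protein interacts, and are no part of the complex.

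The proteasome is the large protease that degrades proteins tagged with ubiquitin. Its core is a barrel of alpha and beta rings, and the beta subunits Psmb5, Psmb6 and Psmb7 carry the catalytic sites. A regulatory cap binds the tagged protein, removes the ubiquitin and threads the chain into the core, driven by a ring of ATPases (Psmc genes) in its base, under a lid of Psmd subunits. Dedicated chaperones (Psmg genes, Psmd5, Psmd9, Psmd10) assist assembly. In neurons the complex takes part in turning over synaptic proteins.

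The mice were adult male C57BL/6J, and the 47 arrays (Affymetrix Mouse Genome 430 2.0) each held RNA of 1 mouse. CIE (chronic intermittent ethanol) mice inhaled vapor in chambers kept at 10 to 13 mg of ethanol per liter for 16 hours a day. Each of 4 cycles held 4 such days and then 7 days without ethanol, and Ctrl mice went through the same cycles in air. Pyrazole, an inhibitor of alcohol dehydrogenase, was given to both groups at 1 mmol/kg, with ethanol (1.6 g/kg) in CIE mice and saline in Ctrl mice. Harvest followed the last session by 0h, 8h, 72h or 7d, with 6 mice per group, except CIE 8h with 5. Each time had its own Ctrl mice. Values are log2 RMA levels, an effect is CIE minus Ctrl on that scale, and a gene is said to have risen or fallen at FDR ≤ 0.01 in limma with adjustment over 45037 probesets. In a tissue extract, fewer cells of a type and less RNA per cell cannot be told apart.

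Several arrays touch the results and are named first. At 8h, 3 Ctrl and 2 CIE mice belonged to repeat group 2, which holds no other time. Those CIE mice, 15 and 23, stood apart in the proteasome genes. Effects at 8h given without them set CIE mice of repeat group 1 against Ctrl mice of both repeat groups. Over all probesets, mouse 15 had a mean correlation of 0.967 with the other arrays, the lowest of the 47 (median 0.992). Mouse 23 had 0.988, and 4 arrays of other times had values as low (0.985 to 0.988). Cortical excitatory neuron markers averaged 11.24 to 11.74 over the 47 mice, with 1 of 5 passing at 0h, Neurod6 (-0.38, adjusted p = 0.00831), and 0 at the other times. Striatal neuron markers varied more, and averaged 9.21 in CIE 0h mice (8.33 to 10.45) against 8.34 in Ctrl 0h mice (8.06 to 8.61), with 10 of 10 markers higher and 0 passing. At 8h they averaged 8.44 in CIE and 8.41 in Ctrl. Alas2, a red cell marker, fell at 0h too (-0.59, adjusted p = 0.00418), and 0 of the 50 cell type markers passed at 72h or 7d. The part of these genes in the proteasome values was not tested.

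The question at each time was whether ethanol had shifted the message of proteasome genes. In the model without a repeat group term, 1 gene passed at 1 time. At 0h, 0 of 47 genes passed, where 7.28% of all probesets and 7.41% of all genes on their brightest probeset did. At 8h, 1 of 47 passed, the assembly chaperone Psmg2, against 3.39% of probesets and 3.53% of genes. At 72h, 0 passed against 0.528% and 0.44%, and at 7d, 0 passed against 0.948% and 0.737%. With repeat group as a term, 6 genes passed at 8h (Psmb6, Psmc4, Psmd7, Psmd12, Psmg2 and Psmg4), where 3004 of the 45037 probesets did, and the counts at the other times stayed at 0. With array weights, 3 passed at 0h (Psmb1, Psmc6 and Psmd6) and 5 at 8h (Psmb11, Psmg2, Psmg4, Psmf1 and Psmc3ip). The share of all probesets passing with weights is not given here, so these counts are not read against it. At an unadjusted p under 0.05 the counts were 11, 15, 3 and 5 genes at the 4 times. For this model the share of all probesets under 0.05 is not given here. Without mice 15 and 23, 6 of 47 genes were under 0.05 at 8h, beside 19.7% of all probesets. In repeat group 1 alone, 6 were, beside 21.4%. The smallest adjusted p was 0.0146 at 0h (Psmd6), 2.6e-04 at 8h (Psmg2), 0.0868 at 72h (Psmg4) and 0.0545 at 7d (Psmb11).

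Effects were small throughout. The median effect over the 47 genes was -0.045 at 0h with 33 genes lower in CIE, -0.085 at 8h with 35 lower, -0.013 at 72h with 29 lower and 0.027 at 7d with 18 lower, beside medians within 0.01 of 0 over all probesets. Single effects ranged from -0.20 to 0.27 at 0h, from -0.57 to 0.42 at 8h, from -0.21 to 0.23 at 72h and from -0.25 to 0.31 at 7d. The 95% confidence interval of the effect lay within 0.5 of 0 for 45 of 47 genes at 0h, 43 at 8h, 47 at 72h and 46 at 7d. It lay within 0.25 of 0 for 32, 23, 35 and 35. The median spread between mice of a group was 0.10 (SD) for the 41 proteasome genes with a mean level of 9 or more, beside 0.12 for the 6197 genes at such levels.

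**Figure D1:**
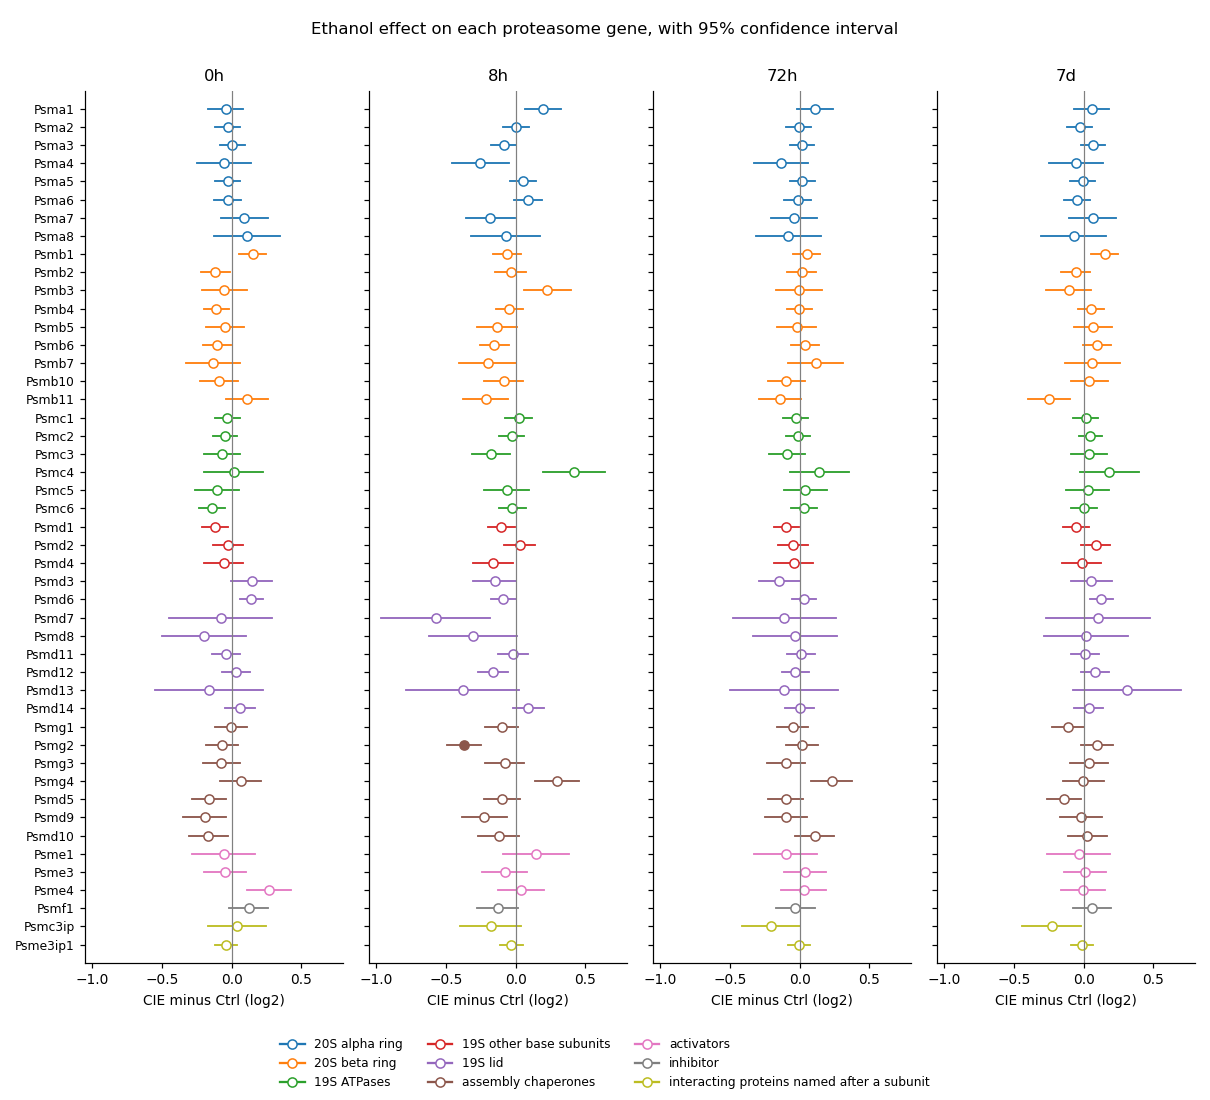
Ethanol effect (CIE minus Ctrl, log2, horizontal axis) of each of the 47 proteasome genes at 0h, 8h, 72h and 7d, coloured by role. Points are limma estimates and lines their 95% confidence intervals, and the filled point marks the 1 gene at FDR ≤ 0.01, Psmg2 at 8h (-0.37).

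Psmg2 encodes a chaperone that pairs with Psmg1 and helps the alpha subunits join into a ring. At 8h its level was 9.73, 9.80, 9.71, 9.73 and 9.76 in CIE mice 40, 51, 69, 15 and 23. In the 6 Ctrl mice it ran from 10.04 to 10.19 with a median of 10.12. Every CIE mouse lay below every Ctrl mouse, and the spread within CIE was the smaller one. The mean fell from 10.11 ± 0.06 (SD, n = 6) to 9.75 ± 0.04 (SD, n = 5), an effect of -0.37 (SE 0.06, 95% interval -0.49 to -0.25, 0.775-fold, limma adjusted p = 2.6e-04). Both repeat groups showed it, with -0.39 in repeat group 1 (3 mice each) and -0.35 in repeat group 2 (2 CIE and 3 Ctrl mice). Without mice 15 and 23 it was -0.37 (adjusted p = 0.00249). Of the 50 cell type markers read, 3 passed at 8h, all lower in CIE: P2ry12 of microglia (-0.57, adjusted p = 0.00198), Sst of inhibitory neurons (-0.29, adjusted p = 0.0086) and Alas2 of red cells (-0.77, adjusted p = 0.00129). Their part in the result was not tested.

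At the other times the gene did not pass. The effect of Psmg2 was -0.07 at 0h, 0.02 at 72h and 0.10 at 7d (adjusted p = 0.393 to 0.938), and CIE and Ctrl mice overlapped at each. CIE mice ran from 9.90 to 10.04 at 0h, from 9.92 to 10.26 at 72h and from 10.04 to 10.14 at 7d, so that none of these 18 mice was as low as the CIE 8h mice. The 8h effect differed from the 7d effect by -0.47 (SE 0.08, adjusted p = 0.00108). Its difference from the 0h effect, 0.30 as 0h minus 8h, did not pass (adjusted p = 0.0177). A second bright probeset of Psmg2 gave -0.31 at 8h (SE 0.09, adjusted p = 0.0208). A dim probeset with a mean level of 4.73 gave 0.37 (adjusted p = 0.0423). The direction thus holds for the 2 bright probesets and not for the dim one. Between mice within groups the 2 bright probesets did not go together (Pearson's r = -0.04, 47 mice). Fitted to the 8h arrays alone, the gene had the same effect and missed the threshold (adjusted p = 0.0134).

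**Figure D2:**
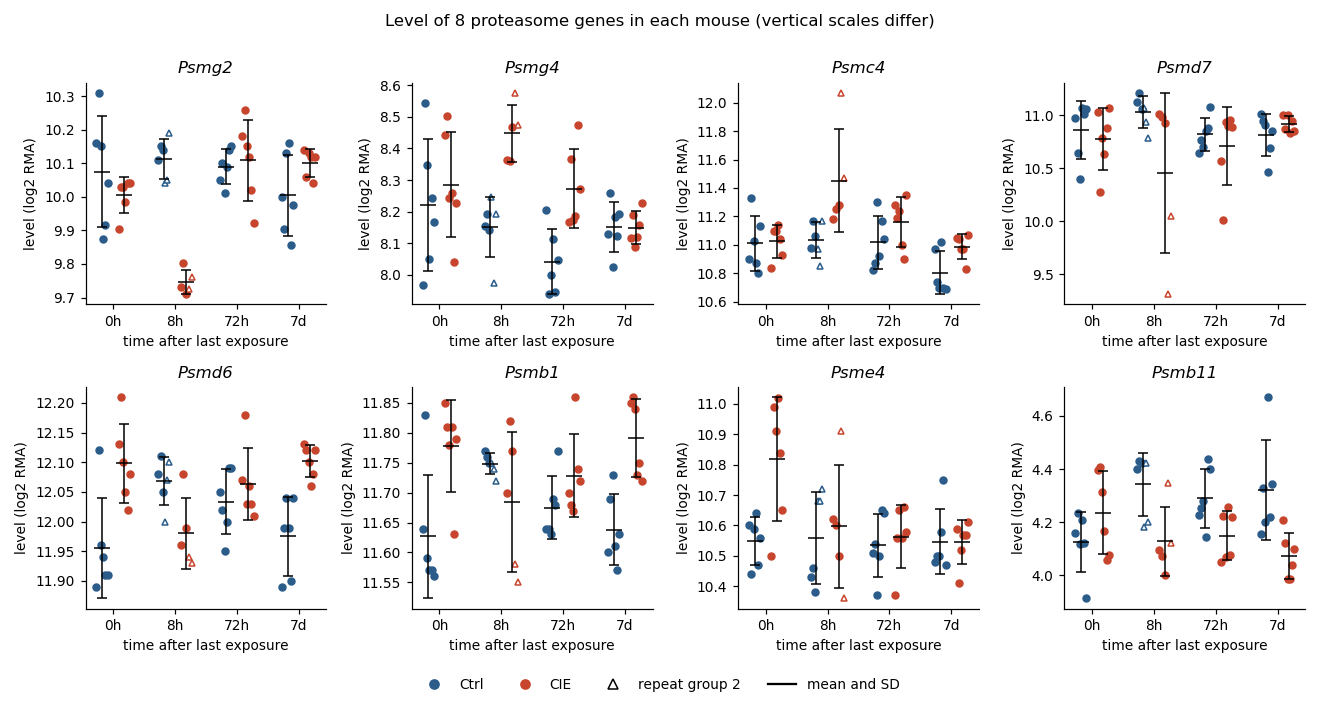
Level (log2 RMA, vertical axis, scales differ) of 8 proteasome genes, 1 point per mouse, at each harvest time, with group mean and SD. Filled circles are repeat group 1 and open triangles repeat group 2. CIE 8h mice are all below Ctrl 8h mice in Psmg2 and all above in Psmg4 and Psmc4. At 8h, Psmd7 is lowest in CIE mice 15 and 23.

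Psmg4, another assembly chaperone, which acts with Psmg3 early in core assembly, moved the opposite way at 8h without passing. Its level at 8h was 8.36, 8.36, 8.47, 8.58 and 8.47 in CIE mice 40, 51, 69, 15 and 23, and 7.97 to 8.25 (median 8.17) in Ctrl mice. These groups did not overlap. The effect was 0.30 (SE 0.08, 95% interval 0.14 to 0.45, adjusted p = 0.0106), with 0.23 in repeat group 1 and 0.39 in repeat group 2, and it was 0.25 without mice 15 and 23 (adjusted p = 0.103). At 72h it was 0.23 (adjusted p = 0.0868), with 6 of 6 CIE mice above the Ctrl mean, and at 7d it was near 0 (95% interval -0.15 to 0.15).

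The other chaperones had effects at 8h from -0.22 (Psmd9) to -0.08 (Psmg3), all lower in CIE. Without mice 15 and 23 this common direction was lost. Psmd5 was then at 0.01 and Psmd10 at 0.03, with Psmg1 at -0.09, Psmg3 at -0.03 and Psmd9 still lower. The 3 that bind the base during its assembly were also the 3 chaperones with an unadjusted p under 0.05 at 0h. Psmd9 had -0.19 at 0h and -0.22 at 8h (adjusted p = 0.074 and 0.0577), Psmd5 had -0.16 at 0h and -0.14 at 7d (adjusted p = 0.0658 and 0.212), and Psmd10, the oncoprotein gankyrin, had -0.17 at 0h (adjusted p = 0.0971). For each, 6 of 6 CIE 0h mice were below the Ctrl mean. The groups overlapped in all 3 genes. Without mice 15 and 23 the 8h effect of Psmd9 was -0.10 (adjusted p = 0.595), and within repeat group 1 it was -0.15.

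In the alpha ring, which forms the gate of the barrel, 0 of 8 genes passed at any time on the brightest probeset. On these probesets 0 had an unadjusted p under 0.05 at 0h. The effects lay between -0.06 and 0.11 at 0h, and the median at 8h was -0.03. Psma1 had the smallest p of the ring. It measured 11.25, 11.36, 11.38, 11.67 and 11.47 at 8h in CIE mice 40, 51, 69, 15 and 23 against 11.13 to 11.32 in Ctrl, which overlap, with an effect of 0.20 (SE 0.07, adjusted p = 0.0447) and of 0.10 without mice 15 and 23. Psma4 and Psma7 were the other 2 with an unadjusted p under 0.05 at 8h, at -0.25 and -0.18, and without these mice both were within 0.03 of 0. The other ring genes, Psma2, Psma3, Psma5 and Psma6, stayed within 0.09 of 0 at all 4 times on the brightest probeset. Other probesets of Psma1 and Psma5 that passed are given below. Psma8, a form of the testis, was dim (mean level 4.65).

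Of the 9 beta ring genes, 0 passed on the brightest probeset. Psmb1, a ring subunit without a catalytic site, was higher in CIE at 0h and at 7d. At 0h it ran from 11.63 to 11.85 (median 11.80) in CIE and from 11.56 to 11.83 (median 11.58) in Ctrl, and at 7d from 11.72 to 11.86 against 11.57 to 11.73. The effect was 0.15 at both times (SE 0.05, adjusted p = 0.0254 and 0.0642), with 6 of 6 CIE mice above the Ctrl mean each time, and -0.06 at 8h and 0.05 at 72h. The 0h groups overlapped through Ctrl mouse 2, at 11.83, and CIE mouse 67, at 11.63, and the 7d groups through 1 Ctrl mouse at 11.73.

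The 3 catalytic subunits had 0 calls. Psmb5, with the chymotrypsin-like site, Psmb6, with the caspase-like site, and Psmb7, with the trypsin-like site, had effects of -0.05, -0.10 and -0.13 at 0h, of -0.14, -0.15 and -0.20 at 8h, of -0.02, 0.04 and 0.11 at 72h and of 0.07, 0.09 and 0.06 at 7d. Without mice 15 and 23 the 8h effects were 0.04, -0.04 and -0.10. Psmb6 at 8h had the smallest adjusted p of the 3, 0.0513. Its CIE mice 40, 51 and 69 all measured 11.66, beside 11.27 and 11.50 in mice 15 and 23 and 11.65 to 11.80 in Ctrl mice. The lowest values were those of mice 15 and 23. The other 3 lay within the range of all Ctrl mice, but below the Ctrl mice of their own repeat group 1 (11.72 to 11.80). Within repeat group 1 the effect was -0.09. At 7d, all 6 CIE mice (11.69 to 11.76) lay above all 6 Ctrl mice (11.51 to 11.68) in Psmb6, with an effect of 0.09 (SE 0.05, adjusted p = 0.333).

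Psmb3, which has no catalytic site, measured 11.51, 11.61, 11.77, 11.68 and 11.86 at 8h in CIE mice 40, 51, 69, 15 and 23 and 11.41 to 11.49 in Ctrl mice. The groups did not overlap, with an effect of 0.23 (SE 0.08, adjusted p = 0.0692) and of 0.17 without mice 15 and 23 (adjusted p = 0.331). A second bright probeset of Psmb3 gave -0.01 at 8h. Psmb2 and Psmb4, both lower in 6 of 6 CIE mice at 0h, had -0.12 and -0.11 then (adjusted p = 0.117 and 0.1) and were within 0.06 of 0 at the later times. On another bright probeset Psmb4 had 0.30 at 8h, which did not pass.

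Psmb10, the immunoproteasome form of Psmb7, had effects from -0.10 to 0.04 over the 4 times. Its partners Psmb8 and Psmb9, outside the symbol rule, had effects of 0.63 and 0.73 at 0h and 0.81 and 0.82 at 8h, and neither passed (adjusted p = 0.0735 to 0.169). Psmb11, the form of the thymus cortex, was the dimmest member (mean level 4.21). Its effect was -0.25 at 7d (adjusted p = 0.0545), with CIE mice at 3.99 to 4.21 and Ctrl mice at 4.16 to 4.67.

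In the ATPase ring, which unfolds substrates, 5 of 6 genes lay between -0.18 and 0.02 at 8h and Psmc4 at 0.42 (SE 0.11, adjusted p = 0.0122). Psmc4 measured 11.18, 11.25, 11.28, 12.07 and 11.47 at 8h in CIE mice 40, 51, 69, 15 and 23, and 10.85 to 11.17 in Ctrl. The groups did not overlap, and mouse 15 was the highest of all 47. The effect was 0.17 in repeat group 1 and 0.78 in repeat group 2, and 0.20 without mice 15 and 23 (adjusted p = 0.272). A second probeset of Psmc4, nearly as bright, gave -0.13 at 8h (adjusted p = 0.123) and passed at 0h with -0.23 (adjusted p = 0.00298), where the brightest gave 0.02. The direction for Psmc4 therefore differs with the probeset at both times. The others were lower in CIE at 0h, with -0.03 for Psmc1, -0.04 for Psmc2, -0.07 for Psmc3 and -0.10 for Psmc5, and at 7d all 6 ATPase genes were above 0, by 0.003 to 0.18, with 0 passing. Psmc6 had -0.14 at 0h (SE 0.05, adjusted p = 0.0298), with 6 of 6 CIE mice below the Ctrl mean. At 8h its brightest probeset gave -0.02 and another bright one 0.34, neither passing.

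The 3 other base subunits, which bind ubiquitin or dock shuttle proteins, had 0 calls. Psmd1, the scaffold of the base, had effects of -0.12, -0.10, -0.09 and -0.05 at the 4 times, the 8h value being -0.01 without mice 15 and 23 and 0.01 in repeat group 1. At 0h its CIE mice ran from 11.93 to 12.02 (median 11.96) and its Ctrl mice from 12.03 to 12.18 (median 12.08). The groups did not overlap, with an effect of -0.12 (SE 0.05, adjusted p = 0.0682). Psmd2 and Psmd4, the other 2, had 0.03 and -0.16 at 8h, the latter 0.03 without mice 15 and 23. At 8h another bright probeset of Psmd4 (mean level 10.83) gave -0.66 without passing. Psmd1 was the 1 proteasome gene without overlap at 0h, where 7.01% of all probesets had none. At 8h there were 4 (Psmb3, Psmc4, Psmg2 and Psmg4) against 6.37%, at 72h 0 against 2.08% and at 7d 2 (Psmb6 and Psmd6) against 3.35%.

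The lid, which holds the deubiquitinase Psmd14, had 0 of 8 genes called on the brightest probeset. On its brightest probeset Psmd6, a structural lid subunit, was higher in CIE at both ends of the course. It ran from 12.02 to 12.21 (median 12.09) in CIE and 11.89 to 12.12 (median 11.93) in Ctrl at 0h, and from 12.06 to 12.13 against 11.89 to 12.04 at 7d. The 0h groups overlapped through Ctrl mouse 2 (12.12), while the 7d groups did not overlap. The effect was 0.14 at 0h (SE 0.04, 95% interval 0.06 to 0.23, adjusted p = 0.0146) and 0.13 at 7d (SE 0.04, adjusted p = 0.075), beside -0.09 at 8h (adjusted p = 0.18). Another bright probeset of Psmd6 (mean level 11.13) rose at 8h instead, by 0.35, and passed. The direction at 8h thus differs with the probeset. Psmd6 passed at 0h when Ctrl 0h mouse 2 was left out, with an effect of 0.18.

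Psmd7, the partner of Psmd14 in the lid, had the lowest effect of all at 8h. It measured 11.01, 10.99, 10.93, 9.31 and 10.05 in CIE mice 40, 51, 69, 15 and 23, and 10.79 to 11.21 (median 11.06) in Ctrl. The lowest values were those of mice 15 and 23. The others lay within the range of all Ctrl mice, but below the Ctrl mice of repeat group 1 (11.06 to 11.21). The effect was -0.57 (SE 0.19, adjusted p = 0.0461), with -0.16 in repeat group 1 and -1.25 in repeat group 2, and it was -0.06 without the 2 mice (adjusted p = 0.903). Psmd13 (-0.06 and -0.89) and Psmd8 (-0.08 and -0.66) had the same division between repeat groups. Psmd12, another lid subunit, had -0.16 at 8h (SE 0.05, adjusted p = 0.0379), -0.06 without the 2 mice and -0.10 within repeat group 1. Psmd3, Psmd11 and Psmd14 had -0.15, -0.02 and 0.09 at 8h (adjusted p = 0.195 to 0.851). Another bright probeset of Psmd11 gave 0.21 without passing. At 7d all 8 lid genes were higher in CIE, by 0.01 to 0.31, with 0 passing.

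Psme4, an activator that opens the core without ATP, had the largest effect at 0h. CIE mice measured 10.50 to 11.02 (median 10.87) and Ctrl mice 10.44 to 10.64 (median 10.57), with 5 of 6 CIE mice above the Ctrl mean and mouse 11, at 10.50, below it. The effect was 0.27 (SE 0.08, 95% interval 0.11 to 0.43, adjusted p = 0.0156), and between 0.00 and 0.04 in size at the later times. It passed at 0h when the fit held repeat group 1 alone, or left out mice 15 and 23, where the pooled spread was taken without them. Psme1 and Psme3, parts of a second family of activators, had effects of -0.06 and -0.05 at 0h, and the inhibitor Psmf1 had 0.12 at 0h and -0.13 at 8h. The interacting proteins Psmc3ip and Psme3ip1 had effects of 0.04 and -0.04 at 0h and of -0.23 and -0.01 at 7d.

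Beside the 0h effects, the striatal markers given above were higher in CIE mice. With their mean as a term in the model, each marker scaled over the arrays, 0 proteasome genes passed at 0h. As 0 passed without the term too, this count cannot show a dependence on it. The effect of Psmd6 with the term was 0.13 (limma adjusted p = 0.0518).

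The level of the whole set at 8h differed between CIE mice. Against the Ctrl mean of their time, the median proteasome gene stood at -0.01, 0.05 and 0.00 in CIE 8h mice 40, 51 and 69, and at -0.19 and -0.18 in mice 15 and 23. The number of genes below the Ctrl mean was 27, 14 and 22 in the former and 35 and 38 in the latter. The correlation with the other arrays was lowest in mouse 15, and its part in these values was not tested. Within repeat group 1 the median effect at 8h was 0.004 with 23 of 47 lower, and within repeat group 2 it was -0.17 with 38 lower. Without the 2 arrays it was 0.012 with 20 lower, 1 gene passed (Psmg2) and 0.988% of all probesets did. The CIE 8h mice had the widest spread of the mean level over 41 genes, 11.15 ± 0.12 (SD, n = 5), beside 11.22 ± 0.02 in Ctrl 8h. CIE 7d mice had the narrowest, 11.21 ± 0.007 (SD, n = 6) beside 11.18 ± 0.04 in Ctrl 7d. 

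**Figure D3:**
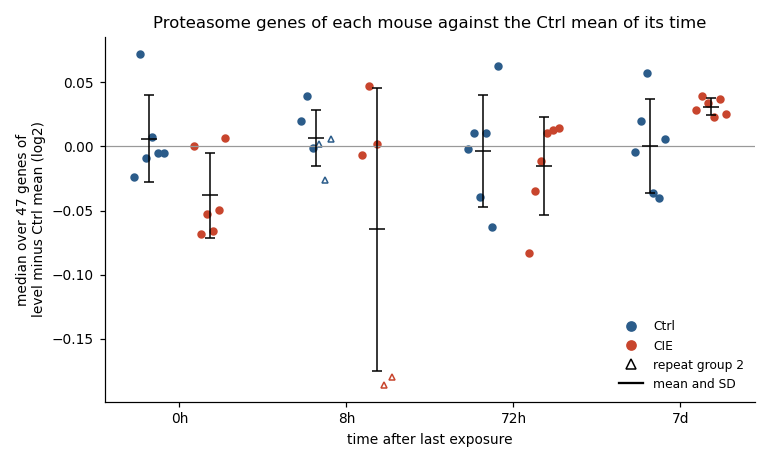
Median over the 47 proteasome genes of the level minus the Ctrl mean of the same time (log2, vertical axis) in each mouse, with group mean and SD. The 2 lowest points are the CIE 8h mice of repeat group 2 (-0.19 and -0.18), and the other 3 CIE 8h mice lie between -0.01 and 0.05.

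**Figure D4:**
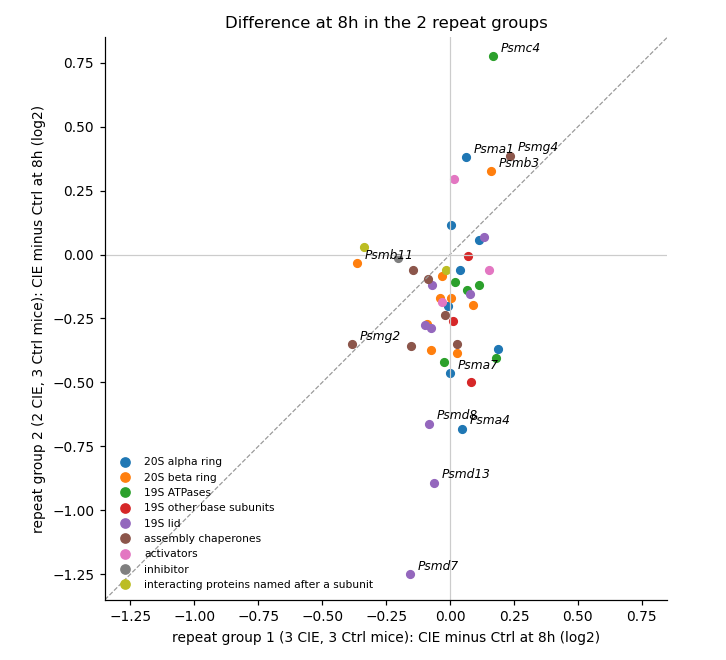
CIE minus Ctrl at 8h (log2) for each proteasome gene in repeat group 1 (horizontal axis) and repeat group 2 (vertical axis), with the line of equal values dashed. Psmg2 has like values in both (-0.39 and -0.35), while Psmd7 has -0.16 and -1.25 and Psmc4 has 0.17 and 0.78.

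Over the 53 other probesets of these genes, 2 passed at 0h (where 7.28% of all probesets did), 4 at 8h (3.39%), and 0 at 72h (0.528%) or 7d (0.948%). At 0h both fell, those of Psmc4 (given above) and of Psma5 (-0.20, adjusted p = 0.00411), whose brightest probeset gave -0.03. At 8h a bright probeset of Psmd6 rose by 0.35 (adjusted p = 0.00523), against -0.09 on the brightest. The others were dim, with mean levels of 5.47 to 6.29, and belonged to Psma1 (0.93), Psmb1 (0.57) and Psme3 (-0.42). Among the 13 genes with a second probeset at level 9 or more, both probesets went together between mice for Psma7 (r = 0.86), Psme4 (r = 0.79) and Psmd4 (r = 0.70), and against each other for Psmc4 (r = -0.61), Psmb3 (r = -0.61) and Psmd11 (r = -0.59), over the 47 mice within groups.

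Psmg2 was also the 1 proteasome gene whose effect passed between times. For 8h against 7d, 1 of 47 genes passed where 1.8% of probesets did. For 0h against 8h, 0 passed (3.41% of probesets), and the smallest adjusted p was 0.0113 for Psmd6, with a difference of 0.23. That is on its brightest probeset, and its other bright probeset had the opposite direction at 8h. For 0h against 7d, 0 passed (0.273%). A moderated F test of any difference among the 4 effects passed for 1 gene, Psmg2 (adjusted p = 0.0012), where 3.77% of probesets did. An F test of any effect at the 4 times passed for 5 genes (Psmb1, Psmb11, Psmd6, Psmg2 and Psmg4), which is 10.6% of the 47, beside 13.6% of all probesets. Among Ctrl mice, 0 genes passed the F test over time, where 1.72% of probesets did. The smallest adjusted p was 0.0745 (Psmd10). An unadjusted p under 0.05 was found for 6 genes, and the share of all probesets at that cut is not given here.

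Between mice of a group, levels of many proteasome genes went together. Over 820 pairs of the 41 genes at level 9 or more, the median Pearson correlation of deviations from the group means was 0.23, with 68.7% of pairs above 0 and a range from -0.74 to 0.91. Over the 42 mice of repeat group 1 the median was 0.19. Lid genes had the highest median within a role (0.49), followed by the beta ring (0.37) and the ATPases (0.31), and the 3 activators had -0.18. The closest pair was Psma7 with Psmb5 (r = 0.91), and the next Psmd7 with Psmd8 (r = 0.88) and Psma4 with Psmd4 (r = 0.86). Psmb5, Psmc3 and Psma7 followed the mean of the other genes most (r = 0.88, 0.86 and 0.85), and Psmc4, Psmb3 and Psmd14 went against it (r = -0.56, -0.37 and -0.37). Psmg2 had r = -0.13. All genes of a mouse share 1 array, so these values are descriptions.

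**Figure D5:**
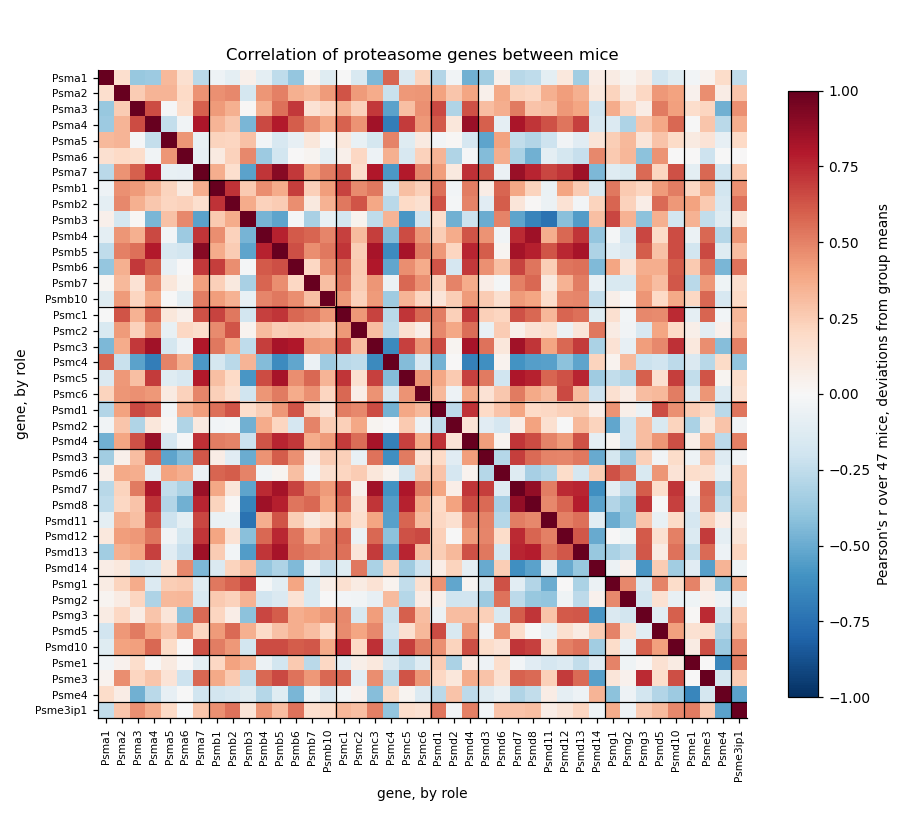
Pearson's r between 41 proteasome genes over 47 mice, from deviations from group means, with genes ordered by role and roles parted by black lines. Lid and beta ring genes hold many of the high values, up to 0.91 for Psma7 with Psmb5, and Psmc4 and Psmb3 have negative values against most of these.

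Of the wider ubiquitin pathway, 46 of 56 listed genes outside the symbol rule were read, and the other 10 were not analysed here. At 0h 1 of 46 passed, Uba6, an enzyme that activates ubiquitin, which fell by 0.32 (adjusted p = 0.00189), where 7.41% of all genes passed on their brightest probeset. At 8h 2 passed (3.53% of genes), both shuttle factors that carry tagged proteins to the proteasome: Ubqln1 fell by 0.17 (adjusted p = 0.00385) and Ubqln2 rose by 0.25 (adjusted p = 0.00945). At 72h and 7d 0 passed (0.44% and 0.737% of genes). The 10 conjugating enzymes, 7 ligases and 6 deubiquitinating enzymes read had 0 calls at each time. The median over the 46 genes was -0.01 at 0h and -0.02 at 8h. Nfe2l1, a transcription factor that raises proteasome genes when the complex is blocked, had -0.06 at 0h and -0.19 at 8h (adjusted p = 0.757 and 0.287).

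Proteasome promoters are known to carry antioxidant response elements, to which Nfe2l1 and Nfe2l2 bind. RefSeq promoter windows (assembly GRCm38.p6, 250 bases before to 50 after a gene start) were at hand for 39 of the 47 genes. The forms TGACNNNGC and TGAGNNNGC, searched on both strands, were found in 6 (15.4%) and 13 (33.3%) of them, beside 14% and 19.8% of 27025 genes in the table, and either form in 17 of 39 (43.6%) beside 30.8%. The box CCAAT was found in 15 (38.5%) beside 41.1%. The first 4 letters are shared with other motifs such as those of AP-1, and matches on opposite strands can overlap. A match is a run of letters and not a measured site. Stretches before the gene start are printed, on the strand of the gene, for 4 of the genes named above with a match near the start, with the matched letters in capitals (for Psmg4 they are read on the opposite strand).
Psmb6 (chr11:70525332-70525356): ggcggactaaagagagTGACGGAGC
Psmd9 (chr5:123228143-123228183): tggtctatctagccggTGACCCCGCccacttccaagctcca
Psmd12 (chr11:107479484-107479524): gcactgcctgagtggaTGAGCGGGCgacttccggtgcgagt
Psmg4 (chr13:34162921-34162961): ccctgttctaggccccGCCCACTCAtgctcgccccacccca
Of these, Psmb6, Psmd9 and Psmd12 had negative effects at 8h and Psmg4 a positive one, and 0 passed. Other genes named above also had a match near the start, among them Psmb3 with a positive and Psmb5 with a negative effect at 8h. For Psmg2 no window was read.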

How the data were processed

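The authors deposited log2 RMA expression values per probeset for 47 Mus musculus arrays. By the study's methods, arrays were background corrected with RMA and quantile normalized with the affy package, and ComBat followed. The methods separate arrays by hybridization batch for the first normalization and name PFC as an exception, where repeat group was the batch factor, so that whether PFC arrays were first normalized by batch is not clear. The submitters' notes name RMA, and the sources used here give no versions. Repeat group 2 holds 8h mice alone, so that adjustment could alter values at 8h. Values were used as deposited (2.82 to 14.7, array medians 6.39 to 6.42), with 0 value columns left out and 0 identical pairs of arrays. The number of arrays limits the precision, and probesets are read against themselves between mice, not against other probesets.

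Groups came from the labels. Of 45037 probesets, 34945 had 1 symbol, 932 several and 9160 none, and genes were named from the first kind alone. A model with a mean for each of 8 groups was fitted in limma 3.58.1 (R 4.3.3, data.table version 1.17.8), with two-sided moderated tests, Benjamini-Hochberg adjusted over every probeset and called at FDR ≤ 0.01. Adjusted p-values are from that limma fit, or from a limma refit where another setting is named beside them. Promoters were searched in Python 3.11.15 and plots drawn with matplotlib 3.10.9.

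Named with full statistics were the genes called at any time, then those of smallest p in the F test over the 4 effects until 12 were named; Psmb3, Psmb5, Psmb7, Psmc6, Psmd7, Psmd8, Psmd10, Psmd13, Psme4 and other genes with values were added after their values were seen, and pathway genes were named where called. The members and lists were chosen with earlier results of these data known. Alternatives were another probeset per gene, repeat group as a term, repeat group 1 alone, array weights, renewed quantile normalization, a filter on dim probesets, a striatal term, arrays of the compared times alone, FDR 0.05, leaving out each array and, chosen after seeing the data, leaving out CIE 8h mice 15 and 23. The fit was tested on simulated data.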

Additional observations from a re-analysis of the deposited data

Results flagged for a closer look

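The ethanol effect on Psmg2 differed between times, by -0.465 as 8h minus 7d (limma adjusted p = 0.00108), with 5 of 5 CIE 8h mice below and 6 of 6 CIE 7d mice above the Ctrl mean of their time. The other values are single mice far from the rest of their group, 9 of 96 groups of the 12 named genes, where chance gives about 1 in 20. Psmd6 was 12.12 in Ctrl 0h mouse 2 and 12.18 in CIE 72h mouse 3, above the other mice of the group. Psmb1 was 11.83 in Ctrl 0h mouse 2 (high), 11.63 in CIE 0h mouse 67 (low) and 11.86 in CIE 72h mouse 33 (high). Psmb6 was 11.51 in Ctrl 7d mouse 46 (low) and 11.81 in CIE 72h mouse 33 (high). Psmb11 was 3.913 in Ctrl 0h mouse 78 (low) and 4.671 in Ctrl 7d mouse 46 (high).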

How the results depend on the processing

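The fall of Psmg2 at 8h kept its direction and call under each alternative tried except 2. Read from its most variable probeset it was 0.373, and with the 8h arrays alone it missed the threshold, so that 0 genes passed there (21 of all probesets did). Over single arrays left out it ran from -0.382 to -0.352. Psmc4 at 8h was -0.128 on the probeset without a suffix for cross-hybridization. The cause of these changes was not tested.

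With suffixed probesets last, 1 gene passed at 0h (Psmc4) and 2 at 8h, and with the most variable probeset 2 at 8h. With repeat group as a term, 6 passed at 8h, 1 between 0h and 8h, 3 between 8h and 7d and 2 in the F test of differing effects. With repeat group 1 alone, 1 passed at 0h (Psme4) and the 8h median was 0.00422. With array weights, which gave CIE 8h mouse 15 a weight of 0.104, 3 passed at 0h, 5 at 8h, 4 between 0h and 8h, 3 between 8h and 7d, 4 in that F test and 10 in the F test of Ctrl mice, and the 8h median was -0.00982. The filter on dim probesets and the striatal term each gave 2 at 8h (Psmg2 and Psmg4). At FDR 0.05, 4 passed at 0h, 6 at 8h, 4 between 0h and 8h, 5 between 8h and 7d and 3 in the F test. Without CIE 8h mice 15 and 23, chosen after seeing the data, 1 passed at 0h (Psme4) and the 8h median was 0.0116. Except where stated above, the share of all probesets passing under each setting is not given here. These counts show how calls vary with the setting and are not read against a background.

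Leaving out single arrays, 0 to 2 genes passed at 0h (more than 0 without Ctrl 0h mouse 2 or CIE 0h mouse 11 or 72), 1 to 3 at 8h (more than 1 without CIE 8h mouse 40, 51 or 69), 0 to 0 at 72h, at 7d, between 0h and 7d and in the F test of Ctrl mice, 0 to 2 between 0h and 8h, 1 to 1 between 8h and 7d and 1 to 2 in the F test of differing effects (2 without Ctrl 0h mouse 2). The 5 arrays that added calls between 0h and 8h were Ctrl 0h mouse 2, Ctrl 8h mouse 32, CIE 0h mouse 67, CIE 8h mouse 51 and CIE 72h mouse 3. The medians ran from -0.0494 to -0.024 at 0h, -0.106 to -0.0397 at 8h, -0.028 to -0.0014 at 72h and 0.00718 to 0.0317 at 7d.
No paired analysis was possible because mouse numbers are not shared between groups.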
